A study of Mus musculus with 36 samples.

Results

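The RNA of primary mouse hepatocytes treated with β-hydroxybutyrate (βOHB) was compared with that of hepatocytes treated with vehicle. The comparison comprised 6 of the 36 libraries in the series: 3 of hepatocytes given 5 mM βOHB for 6 h and 3 of hepatocytes given phosphate-buffered saline (PBS) for the same time. They were chosen by cell type and treatment as labelled, with no use of measured values. A further 3 hepatocyte libraries, treated with 5 mM sodium butyrate for 6 h, served as a comparison with a structurally related acid. The hepatocytes came from male mice, C57Bl/6 in the labels and C57BL/6NHsd in the methods of the study, by collagenase perfusion of the liver, with no genetic modification stated. All groups shared the same culture: attachment to collagen in Williams E medium with fetal bovine serum and dexamethasone, then a night in medium without dexamethasone. How many mice or separate isolations lay behind the 3 libraries of a group is not given in the sources used here, so P-values measure the spread between these samples, which may be technical.

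βOHB is the main circulating ketone body. It is made in the mitochondria of hepatocytes during fasting from acetyl-CoA, in a sequence whose last enzyme is encoded by *Bdh1*, and it leaves the cell through monocarboxylate transporters. The liver exports ketone bodies rather than burning them, because hepatocytes have little of the transferase encoded by *Oxct1*. βOHB has been discussed as an inhibitor of histone deacetylases (HDACs), as butyrate is. The molecules differ in that βOHB carries a hydroxyl group on the carbon chain of butyrate. The comparison thus asks whether the cells that make βOHB alter their transcripts when it is added from outside.

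Albumin (*Alb*) mRNA took 24700 to 31300 CPM (counts adjusted for library size) in the 6 libraries, and the 10 hepatocyte markers together 56800 to 68100 CPM, with overlapping ranges in control and βOHB. Of 13 markers of Kupffer cells, the macrophages of the liver, 12 stayed below 5 CPM in every library (*Cd68*, at 71.6 to 105 CPM, was the other one), and none of the 10 tested had P below 0.05. Markers of endothelial cells summed to 152 to 171 CPM in control and 154 to 180 CPM under βOHB, and those of stellate cells and fibroblasts to 47.7 to 55.3 and 51.8 to 56.2 CPM. Cholangiocyte markers summed to 488 to 512 and 468 to 522 CPM. Adipocyte markers summed to 5.26 to 6.76 and 5.49 to 6.47 CPM. Red blood cell markers reached 7.35 CPM in 1 βOHB library against at most 2.07 CPM in the controls, and 5 markers of muscle cells lay at 23.4 to 24.6 CPM in control and 20.1 to 21.3 CPM under βOHB, the one list whose ranges did not overlap. None of the tested markers of any of these lists had P below 0.05. In such bulk samples, fewer cells of a type and less RNA per cell cannot be told apart. Total estimated counts were 18556853 to 19607332 in the controls and 19356834 to 23085815 under βOHB. Control 1 and βOHB 2 stood apart from the rest of the 6 libraries in their balance of short and long transcripts. Several results that rest on them are given below with and without them.

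The gene with the clearest response was *Cyp2c29*, a cytochrome P450 of the liver that oxidizes drugs and fatty acids. Its promoter is printed first, with those of its relatives *Cyp2c37* and *Cyp2c70*, which did not pass the test, and that of *Cyp3a11*, a target of the pregnane X receptor (PXR) that did not pass it either. Each window runs from 250 bases before to 50 bases after the RefSeq transcription start (GRCm38.p6), written 5′ to 3′ along the gene. Capitals mark the letters AGGTCA or AGTTCA on either strand, the half-sites that many nuclear receptors, among them PXR, CAR, PPARα and HNF4α, can bind.
*Cyp2c29*, chr19:39286835-39287134, plus strand: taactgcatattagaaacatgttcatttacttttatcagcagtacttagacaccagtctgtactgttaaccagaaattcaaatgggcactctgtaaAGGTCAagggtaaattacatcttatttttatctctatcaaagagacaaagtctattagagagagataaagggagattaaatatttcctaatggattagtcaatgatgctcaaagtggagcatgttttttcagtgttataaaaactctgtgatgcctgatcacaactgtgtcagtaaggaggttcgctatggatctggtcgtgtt
*Cyp2c37*, chr19:39992174-39992473, plus strand: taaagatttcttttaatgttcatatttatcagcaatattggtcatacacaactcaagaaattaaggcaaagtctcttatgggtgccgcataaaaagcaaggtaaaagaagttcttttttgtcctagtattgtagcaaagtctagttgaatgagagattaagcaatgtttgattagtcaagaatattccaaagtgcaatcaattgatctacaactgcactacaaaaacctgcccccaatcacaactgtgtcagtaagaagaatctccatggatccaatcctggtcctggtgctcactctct
*Cyp2c70*, chr19:40187237-40187536, minus strand: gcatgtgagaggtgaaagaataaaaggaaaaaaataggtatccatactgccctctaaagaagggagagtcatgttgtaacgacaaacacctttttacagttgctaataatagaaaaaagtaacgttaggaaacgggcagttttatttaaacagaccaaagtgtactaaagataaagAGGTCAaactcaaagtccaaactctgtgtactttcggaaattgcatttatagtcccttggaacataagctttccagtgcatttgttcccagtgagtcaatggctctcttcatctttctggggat
*Cyp3a11*, chr5:145879805-145880104, minus strand: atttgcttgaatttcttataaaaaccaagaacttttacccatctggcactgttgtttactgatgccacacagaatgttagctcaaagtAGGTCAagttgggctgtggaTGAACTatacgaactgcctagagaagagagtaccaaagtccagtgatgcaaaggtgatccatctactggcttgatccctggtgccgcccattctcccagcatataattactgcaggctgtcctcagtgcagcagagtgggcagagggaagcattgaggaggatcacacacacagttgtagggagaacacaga
The *Cyp2c29* window held 1 such match, which began 154 bases before the start, and *Cyp3a11* held 2, at 162 and 142 bases before it. *Cyp2c70* held 1 at 74 bases and *Cyp2c37* none. The window of *Cyp2b10*, another target of such receptors, held none and is not printed. In the whole table, 27.7% of 32851 promoter windows held at least 1 match, as did 7 of the 14 windows of *Cyp2c* genes. A match of these letters is a description of the window and was found here in *Cyp2c29* and also in genes that did not pass the test.

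Few genes differed singly between βOHB and control. At an unadjusted P below 0.05 in edgeR stood 845 genes (3.01% of those tested higher and 2.5% lower). Of the 15340 genes tested with edgeR, 25 had an unadjusted P below 0.001 (0.163%), 13 of them higher and 12 lower, and 1 passed a false discovery rate (FDR) of 0.05 (0.00652%). That gene was *Cyp2c29* (ENSMUSG00000003053, GRCm38 chromosome 19 from 39269405 to 39330713, plus strand). Its level was 11.6, 14.6 and 13.4 CPM in the controls and 50.1, 44.2 and 33.6 CPM under βOHB. The lowest βOHB library thus stood above the highest control by more than the whole range of the controls. The mean rose from 13.2 ± 1.52 to 42.6 ± 8.32 CPM (SD, n = 3), a log2 fold change of 1.69 with a standard error (SE) of 0.22 and an edgeR adjusted p of 0.0354, which is 3.23-fold. The change held its direction and a P below 0.001 under all 21 alternative settings tried. Its adjusted p lay between 7.46e-30 and 0.301, and it was above 0.05 when control 1 (0.188), control 2 (0.128), control 3 (0.11), βOHB 1 (0.301) or any butyrate library (0.095 to 0.106) was left out. It was also above 0.05 with both leaning libraries left out (0.0829) and with the lean as a covariate (0.141).

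Another 7 genes completed the 8 of smallest P with all 3 βOHB libraries above all 3 controls, a pattern seen in 3.12% of all tested genes. None of them passed the FDR (adjusted p 0.515 to 0.545), so the values describe these libraries. Without βOHB 2, *Zfp229* (edgeR adjusted p 0.0125) and *Gm14295*, *Zfp51* and *Ubr1* (each 0.0358) passed it. With control 1 left out as well, *Zfp229* and *Gm14295* passed (edgeR adjusted p 0.0381 each), and *Zfp51* (0.0662) and *Ubr1* (0.11) did not. With the lean as a covariate none of these genes passed (edgeR adjusted p 0.532 to 0.627). *Zfp229*, which encodes a zinc-finger protein, was at 6.83, 6.82 and 6.38 CPM in the controls and 9.88, 7.68 and 9.81 CPM under βOHB (log2 fold change 0.45, SE 0.10). *Gm14295*, a gene known by its model number, was at 5.01, 4.91 and 3.72 against 7.09, 5.84 and 7.77 CPM (0.60, SE 0.14). *Zfp51*, another zinc-finger gene, went from 8.96, 9.95 and 7.5 to 11.0, 10.6 and 14.2 CPM (0.44, SE 0.10). In all 3 genes the βOHB group lay above the controls, and βOHB 2 was the lowest of its group. *Ubr1*, a ubiquitin ligase of the N-degron pathway, was at 38.1, 40.9 and 43.2 against 53.9, 44.5 and 48.1 CPM (0.26, SE 0.06). *Zfp605*, a further zinc-finger gene, was at 2.38, 2.09 and 1.89 against 3.99, 3.16 and 3.62 CPM (0.76, SE 0.20). *Arrdc2*, an arrestin-domain protein, had 3.38, 3.69 and 3.72 against 4.89, 5.52 and 4.67 CPM (0.48, SE 0.13), and *Rtn4rl1*, of the Nogo receptor family, 10.1, 12.0 and 11.0 against 15.2, 15.7 and 13.1 CPM (0.41, SE 0.11). All of these differences were under 2-fold.

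The 8 lower genes described next were those of smallest P among the lower genes with all βOHB libraries below all controls, a pattern seen in 3.59% of all tested genes. *Rnf34*, a RING-finger ubiquitin ligase, was at 20.5, 22.7 and 21.4 CPM in the controls and 18.0, 17.4 and 18.9 CPM under βOHB (log2 fold change -0.25, SE 0.06). *Gm2000*, a short gene model of 445 exonic bases, was at 2.88, 2.70 and 3.01 against 1.10 to 1.34 CPM (-1.25, SE 0.30). *Kin*, a nucleic acid-binding protein, had 16.5, 13.5 and 15.0 against 13.3, 10.3 and 12.1 CPM (-0.33, SE 0.08). The difference of *Gm2000* was the only one of the 8 beyond 2-fold. *Aatf*, a nucleolar protein, had 33.5, 28.2 and 32.4 against 24.8, 28.0 and 23.7 CPM (-0.30, SE 0.07). *Gps2*, a subunit of the corepressor complex that holds HDAC3, had 38.1, 35.6 and 32.4 against 27.8, 32.1 and 27.9 CPM (-0.27, SE 0.07). *N6amt1*, a protein methyltransferase, had 14.7, 11.9 and 13.4 against 9.51, 8.10 and 11.6 CPM (-0.46, SE 0.12). In *Aatf*, *Gps2*, *Kin* and *N6amt1* the nearest libraries of the groups lay close together. *Nsfl1c*, a cofactor of the p97 ATPase, differed by -0.19 (SE 0.05), and *AC121821.1*, known only by its clone, by -0.73 (SE 0.20). None of the 8 passed the FDR with all libraries, and without βOHB 2 *Aatf* (edgeR adjusted p 0.0358) and *Gps2* (0.0475) did. Neither passed with control 1 left out as well (edgeR adjusted p 0.11 and 0.152) or with the lean as a covariate (0.602 and 0.673). Among the 25 genes, 22 had groups that did not overlap. The other 3 were *Clock*, *Arhgap5* and *Smtnl2*, singled out here after their values were seen: in *Clock* and *Arhgap5* βOHB 2 lay among the controls, and in *Smtnl2* control 1 (2.69 CPM) lay among the βOHB libraries (2.52 to 2.74 CPM).

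**Figure D1:**
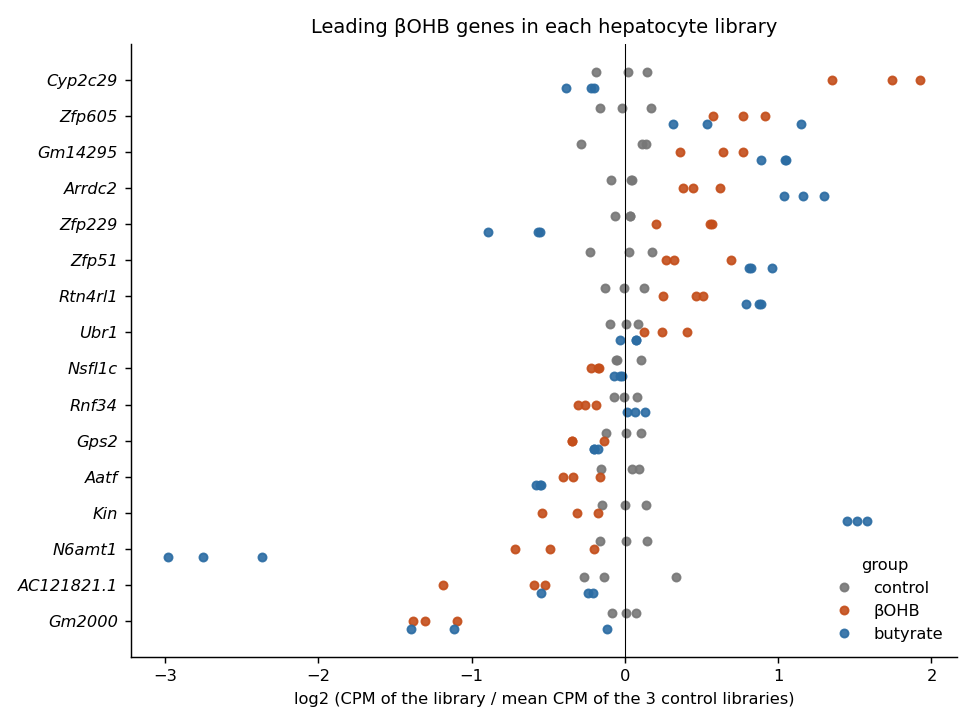
Level of the 16 leading genes in each of the 9 hepatocyte libraries as log2 of CPM over the mean of the 3 controls (x axis), 1 row a gene and 1 point a library. All βOHB points lie to 1 side of all control points, which the choice of these genes required, and *Cyp2c29* stands furthest out; the butyrate points of *Kin* and *N6amt1* lie far from both.

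No other tested gene of the *Cyp2c* family passed the test. The mouse *Cyp2c* genes lie on chromosome 19 and encode enzymes that oxidize drugs, steroids and polyunsaturated fatty acids. Of the 15 genes counted, 9 were tested, and 1 of the 9 was higher at P below 0.05, against 3.01% of all tested genes. *Cyp2c70*, the bile acid hydroxylase and the most abundant by counts, was at 362, 388 and 425 CPM in the controls and 417, 434 and 391 CPM under βOHB. *Cyp2c68* (32.8, 32.9 and 34.9 against 35.9, 33.1 and 31.1 CPM) and *Cyp2c50* (5.64, 5.28 and 6.91 against 7.04, 4.89 and 5.61 CPM) overlapped between groups. *Cyp2c37* lay at 4.26, 5.28 and 4.84 against 6.09, 5.84 and 5.37 CPM, and its log2 fold change of 0.27 had an interval from -0.16 to 0.69. *Cyp2c67* was at 15.0, 14.3 and 14.9 against 15.7, 16.3 and 15.7 CPM. *Cyp2c23* went the other way by a small margin, from 25.4, 25.3 and 26.9 to 25.2, 24.5 and 24.5 CPM. With *Cyp2c29*, *Cyp2c37* and *Cyp2c67*, 3 of the 9 had every βOHB library above every control, as did 3.12% of all tested genes. Only 1 of the 9, *Cyp2c23*, had every one below, as did 3.59% of all. The 2 tested genes of lowest count, *Cyp2c38* (1.44 to 2.07 against 1.99 to 2.63 CPM) and *Cyp2c54* (1.38 to 1.95 against 1.68 to 2.22 CPM), overlapped. Without *Cyp2c29*, the family summed to 450, 475 and 520 CPM in the controls and 513, 525 and 480 CPM under βOHB, so that the groups overlapped. The mean log2 CPM of the 9 tested genes, *Cyp2c29* included, was 3.5, 3.61 and 3.73 in the controls and 3.99, 3.9 and 3.83 under βOHB. Of 24 gene lists this was the one whose library means did not overlap between the groups. Related transcripts can split reads in such counting: 5.22% of the 31-base words in *Cyp2c29* transcripts also occurred in other *Cyp2c* transcripts, at most 3.53% in any one of them (*Cyp2c39*). *Cyp2c39* itself had 9 to 22 counts in the controls and 10 to 15 under βOHB. *Cyp2c29* had 185 to 238 counts in the controls and 576 to 953 under βOHB.

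**Figure D2:**
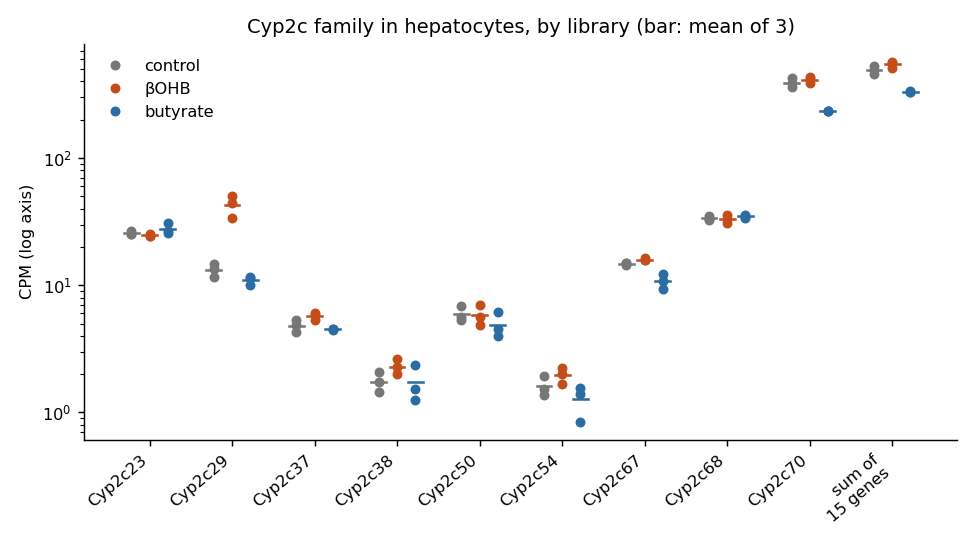
CPM of the 9 tested *Cyp2c* genes and of the sum of all 15 (y axis, log scale) in control, βOHB and butyrate hepatocytes, with 1 point a library and a bar at the mean of 3. *Cyp2c29* under βOHB lies at 33.6 to 50.1 CPM, apart from 11.6 to 14.6 CPM in the controls; the βOHB points of the other 8 genes lie beside or among their controls.

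*Cyp2c29* belongs to the genes that the nuclear receptors CAR (*Nr1i3*) and PXR (*Nr1i2*) induce in liver when drugs or steroids bind them, as do *Cyp2b10* and *Cyp3a11*. On a list of 39 tested regulators and targets of CAR, PXR and the dioxin receptor AhR, 1 gene was higher (*Cyp2b10*) and 1 lower (*Cyp1a1*) at P below 0.05, which is 2.56% each way against 3.01% and 2.5% of all genes, with a median log2 fold change of 0.043 against 0.001 for all genes. *Cyp2b10* was at 82.2, 84.8 and 84.9 CPM in the controls and 115, 140 and 91.2 CPM under βOHB (0.46, SE 0.18, P 0.0195 in edgeR). *Cyp3a11* was at 278, 374 and 321 against 482, 473 and 388 CPM (0.47, SE 0.28). In both genes every βOHB library was above every control. That held for 4 of the 39 genes and the reverse for 0, against 3.12% and 3.59% of all tested genes. *Nr1i2* was at 36.2, 38.6 and 35.2 against 42.8, 46.4 and 39.7 CPM and did not overlap either. Its log2 fold change of 0.23 had an interval from -0.06 to 0.52, and that of *Nr1i3* (6.33, 7.37 and 5.73 against 7.51, 8.10 and 5.43 CPM) was 0.12, from -0.26 to 0.49. *Por*, the reductase that passes electrons to these enzymes, was at 432, 426 and 429 against 406, 448 and 383 CPM. *Cyp1a1*, the AhR target, was at 10.4, 7.74 and 4.61 against 3.36, 6.26 and 5.20 CPM with overlapping groups, and *Cyp1a2* at 23.4, 20.4 and 16.1 against 14.8, 21.8 and 14.3 CPM.

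The spread assigned to these genes depended on which libraries entered the fit. When the 9 hepatocyte libraries were fitted alone, 11 genes had P below 0.001, 4 of which were among the 25 above. They included *Cyp2c29* (adjusted p 9.43e-06), *Cyp2b10* (log2 fold change 0.45, SE 0.10, P 0.000482 in edgeR) and *Cyp3a11* (0.46, SE 0.11, P 0.000656). The last 2 had an adjusted p of 0.992. In that fit 4 of the 39 CAR, PXR and AhR genes were higher at P below 0.05 (10.3% against 2.34% of all genes), namely *Cyp2b10*, *Cyp3a11*, *Gstm3* and *Nr1i2*, and *Cyp1a1* was lower. Of the same 11 genes, the nuclear RNA *Malat1*, outside the naming rule, was at 64.9, 67.3 and 66.5 CPM in the controls and 87.9, 79.4 and 90.2 CPM under βOHB (0.37, SE 0.07). Other drug-metabolizing P450 genes gave none of 26 at P below 0.05 in the fit of all libraries. In that of the hepatocyte libraries 2 were higher (*Cyp39a1* and *Cyp4f15*, 7.69% against 2.34% of all genes) and 1 lower (*Cyp26a1*, 3.85% against 1.92%). Other members of this list were *Cyp2d9* (176, 184 and 162 against 186, 212 and 153 CPM), *Cyp2e1* (97.6, 80.5 and 76.7 against 77.9, 75.0 and 61.0 CPM) and *Cyp2f2* (20.6, 20.9 and 21.4 against 22.5, 20.6 and 18.5 CPM).

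The genes that make and use ketone bodies did not pass the test. None of the 10 tested had P below 0.05, and their median log2 fold change was 0.064. Without βOHB 2 the median was -0.012 and 1 gene was higher at P below 0.05, *Oxct1* at 0.24 (P 0.0123 in edgeR). *Bdh1*, which interconverts βOHB and acetoacetate, was at 29.4, 25.0 and 25.7 CPM in the controls and 28.1, 31.1 and 24.1 CPM under βOHB, with a log2 fold change of 0.06 and a 95% interval from -0.13 to 0.25. *Oxct1*, which starts ketone use, was detected at 17.0, 15.6 and 18.5 against 19.3, 15.5 and 20.8 CPM (0.12, from -0.07 to 0.31). A change of 1.5-fold or more lay outside both intervals.

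Among 9 tested transporters of ketones and lactate, 1 was lower at P below 0.05 (11.1% against 2.5% of all genes), *Slc16a13*, at 0.709 to 1.41 CPM in the controls and 0.584 to 0.842 CPM under βOHB. This call was lost when the hepatocyte libraries were fitted alone (P 0.0677 in edgeR, 0 of 9 called). *Slc16a1* (Mct1) was at 124, 137 and 137 against 136, 135 and 128 CPM, with an interval from -0.24 to 0.25. *Slc16a6* (Mct7), a βOHB exporter, was at 23.9, 24.0 and 29.5 against 20.7, 20.1 and 26.3 CPM (-0.21, from -0.45 to 0.03), and *Slc16a7* (Mct2) at 31.3, 34.8 and 29.3 against 40.3, 33.3 and 29.3 CPM (0.11, from -0.18 to 0.40). *Bsg*, the chaperone of these transporters, differed by -0.05 (from -0.32 to 0.22). All these groups overlapped. Of the receptors for ketones and fatty acids, *Hcar2*, which βOHB activates, was at 0.439 to 1.12 CPM in the controls and 0.642 to 1.63 CPM under βOHB, and *Ffar3* had 0 counts in all 6 libraries. The log2 fold change of *Hcar2* was 0.41, with an interval from -0.46 to 1.28 that reached beyond 2-fold.

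Fasting in the liver is marked by PPARα, the fatty acid receptor, and by gluconeogenesis. Of 48 tested PPARα targets and fatty acid oxidation genes, 2 were higher (*G0s2* and *Aldh3a2*) and none lower at P below 0.05, which is 4.17% against 3.01% of all genes, with a median of 0.070. Without βOHB 2 none passed in either direction and the median was -0.010, and in the hepatocyte libraries alone only *G0s2* passed. *G0s2*, an inhibitor of lipolysis, was at 5.58, 4.85 and 4.61 CPM in the controls and 5.78, 6.42 and 7.01 CPM under βOHB (0.35, SE 0.16). *Cpt1a*, the gate of fatty acids into mitochondria, was at 163, 181 and 181 against 184, 193 and 161 CPM, bounded between -0.16 and 0.24. *Pdk4*, which spares glucose, was at 36.1, 39.2 and 31.1 against 34.4, 33.7 and 30.8 CPM, *Angptl4* at 132, 110 and 122 against 117, 137 and 120 CPM, and *Plin2*, a lipid droplet coat, at 1080, 1030 and 1040 against 1000, 1160 and 1010 CPM. None of 31 genes of gluconeogenesis and glycolysis had P below 0.05. Fitted on the hepatocyte libraries alone, 2 were higher (*Gys2* and *Slc2a2*, 6.45% against 2.34% of all genes). *Pck1* was at 86.4, 85.0 and 81.7 against 119, 115 and 72.5 CPM, with βOHB 3 below and the other 2 above the controls (0.28, from -0.12 to 0.68). *G6pc* had 15.8, 14.6 and 11.2 against 20.6, 19.4 and 12.7 CPM (0.35, from -0.15 to 0.84), and *Hk2*, which phosphorylates glucose, differed by 0.03.

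Genes of lipid synthesis mostly did not pass the test either. Of 25 genes of fatty acid and triglyceride synthesis, 1 was higher at P below 0.05 (*Acacb*, at 25.8, 31.6 and 30.0 against 32.9, 36.4 and 31.9 CPM), which is 4% against 3.01% of all genes. Fitted on the hepatocyte libraries alone, 2 were higher (8% against 2.34%). Without βOHB 2 none of the 25 had P below 0.05, and the median was -0.025, against 0.041 with all libraries. *Srebf1*, the insulin-driven regulator of the pathway, was bounded between -0.19 and 0.06, *Fasn* between -0.27 and 0.44, *Acaca* between -0.09 and 0.36 and *Scd1* between -0.09 and 0.46. Of 29 genes of cholesterol synthesis and uptake, 1 was higher (*Abca1*, the sterol exporter, at 139, 187 and 194 against 230, 186 and 199 CPM), which is 3.45% against 3.01% of all genes. *Hmgcs1* and *Sqle*, enzymes of the synthesis pathway, differed by -0.06 and -0.02, each with an SE of 0.08. Bile acid genes had the highest median of the 24 lists, 0.135 over 19 tested genes, with none at P below 0.05. The median was 0.055 without βOHB 2 and 0.028 without both leaning libraries, below that of the *Cyp2c* family in those fits (0.091 and 0.105). In the fit of the hepatocyte libraries 3 of the 19 were higher at P below 0.05 (*Abcb11*, *Akr1c6* and *Slc10a1*, 15.8% against 2.34% of all genes). *Abcb11*, the bile salt export pump, was at 13.3, 17.4 and 17.5 against 21.5, 20.8 and 16.6 CPM (0.29, SE 0.17), *Slc10a1*, the bile salt importer, at 11.5, 10.7 and 8.15 against 13.9, 15.4 and 9.58 CPM (0.36, SE 0.22), and *Nr0b2* at 2.21 to 3.88 against 2.05 to 3.63 CPM. *Cyp7a1*, the rate-limiting enzyme of bile acid synthesis, had at most 3 counts in any of the 6 libraries and was not tested. In βOHB 3 the levels of *Abcb11*, *Slc10a1*, *Pck1* and *G6pc* were the lowest of their group.

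Genes that define the hepatocyte did not pass the test. None of 20 hepatocyte transcription factors had P below 0.05. *Hnf4a* was at 650, 625 and 658 CPM against 709, 740 and 599 CPM, and *Foxa2*, *Cebpa* and *Nr5a2* differed by -0.11, -0.01 and 0.09. None of 43 plasma proteins and apolipoproteins (1 higher and 1 lower in the fit of the hepatocyte libraries, 2.33% each way against 2.34% and 1.92% of all genes) and none of 47 genes of the urea cycle and amino acid breakdown had P below 0.05. *Cps1*, the first enzyme of the urea cycle, was at 654, 807 and 705 against 948, 984 and 690 CPM (0.28, from -0.42 to 0.97). In the fit of the 9 hepatocyte libraries it was 0.27 (SE 0.11, P 0.0297 in edgeR), 1 of 2 higher genes of the 47 there (4.26% against 2.34%). *Otc*, *Tat* and *Tdo2* overlapped between groups and differed by 0.09, 0.18 and 0.05. *Alb* itself differed by 0.04, with an interval from -1.44 to 1.52 in the fit of all libraries and from -0.13 to 0.20 in that of the hepatocyte libraries. The secreted proteins *Apoa1*, *Igfbp1* and *Igf1* differed by 0.04, 0.13 and -0.06. Of 35 acute phase and cytokine genes, 1 was higher at P below 0.05 (*Il1r1*, at 47.2, 48.8 and 47.3 against 58.6, 48.8 and 51.2 CPM), which is 2.86% against 3.01% of all genes. Fitted on the hepatocyte libraries alone, *Il1r1* had P 0.0964 in edgeR and 1 other gene, *Crp*, was higher. *Saa1* was at 360, 316 and 303 against 321, 358 and 335 CPM, and *Hp*, *Lcn2* and *Cxcl1* differed by 0.04, -0.01 and -0.01.

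**Figure D3:**
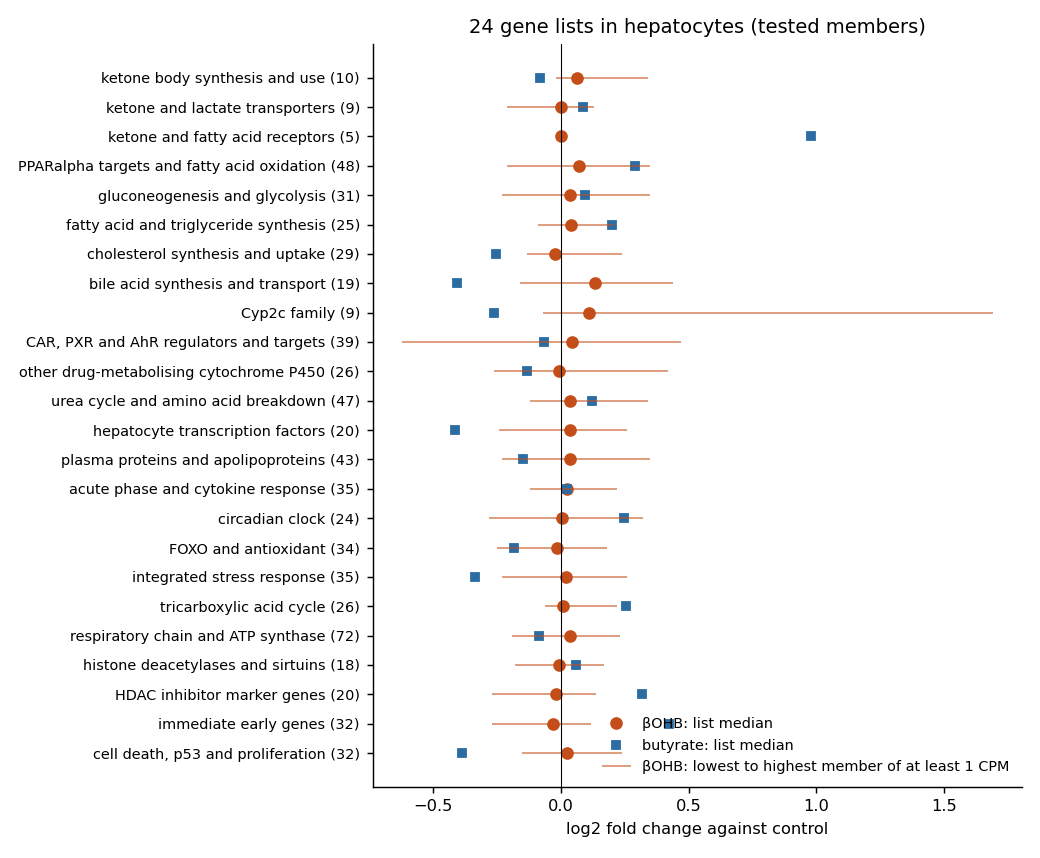
Median log2 fold change against control (x axis) of 24 gene lists, with the number of tested members in parentheses. The βOHB medians (circles) lie between -0.03 and 0.135, while butyrate medians (squares) reach -0.412 to 0.979; lines span the lowest to the highest member of at least 1 CPM under βOHB, and the line of the *Cyp2c* family runs out to *Cyp2c29* at 1.69.

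Genes that respond to HDAC inhibition were compared between βOHB and butyrate at the same 5 mM and 6 h. *H1f0*, a linker histone that HDAC inhibitors raise in many cells, was at 118, 120 and 105 CPM in the controls, 113, 120 and 102 CPM under βOHB and 602, 628 and 582 CPM under butyrate. Its log2 fold change was -0.04 (from -0.17 to 0.09) for βOHB and 2.40 for butyrate. The direct difference, βOHB minus butyrate, was -2.44 (edgeR adjusted p 2.06e-23). *Inppl1* was at 101, 123 and 114 against 116, 122 and 115 CPM under βOHB and 44.7, 44.4 and 48.4 CPM under butyrate, and *Phlda3* at 29.3, 26.8 and 27.2 against 25.7, 30.0 and 25.2 and then 9.05, 8.12 and 8.70 CPM. The CDK inhibitor *Cdkn1a* was at 323, 338 and 317 CPM in control, 289, 317 and 286 CPM under βOHB and 304, 306 and 296 CPM under butyrate, with a direct difference of -0.02 (from -0.21 to 0.16). Of 20 tested HDAC inhibitor markers, 3 were lower (*Anp32b*, *Cdkn1c* and *Tubb3*) and none higher at P below 0.05 under βOHB, which is 15% against 2.5% of all genes, with a median of -0.018. *Cdkn1c* (0.105 to 0.614 CPM in the 6 libraries) and *Tubb3* (0.0525 to 0.591 CPM) lay below the floor of 1 CPM. In the fit of the hepatocyte libraries the same 3 genes and *Cdkn1a* (-0.14) were lower, 4 of 20 (20% against 1.92%). *Anp32b*, an acidic nuclear phosphoprotein, was at 254, 195 and 203 CPM in the controls and 190, 177 and 193 CPM under βOHB (-0.22, SE 0.07, P 0.00395 in edgeR), and 66.6, 70.3 and 65.0 CPM under butyrate. For these 20 genes butyrate gave 10 higher and 6 lower at an adjusted p below 0.05, where 63.5% of all genes passed.

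Over all genes, the compounds differed at an adjusted p below 0.05 for 9747 of 15340 (63.5%), 5066 of them higher and 4681 lower under βOHB than under butyrate. Butyrate against the same control libraries gave 9737 (63.5%). The median size of the log2 fold change was 0.0842 for βOHB and 0.544 for butyrate. These 2 comparisons share the 3 control libraries. Only 1 pair of compounds was compared. *Cyp2c29* was at 11.3, 11.5 and 10.1 CPM under butyrate, and its direct difference was 1.95 (from 1.48 to 2.43, adjusted p 1.67e-06). *N6amt1* had 1.69, 1.98 and 2.58 CPM under butyrate (direct difference 2.23, adjusted p 1.02e-13) and *Kin* 40.9, 42.9 and 44.8 CPM (-1.85, adjusted p 5.94e-19). For *Cyp2b10* (125, 115 and 113 CPM under butyrate) the direct difference was -0.03, with an interval from -0.40 to 0.35, inside 1.5-fold either way.

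Genes that butyrate moved in the other cell types were examined next. Butyrate raised 1751 genes at P below 0.001 in each of adipocytes, macrophages and myotubes. Of these, 82 were higher and 38 lower at P below 0.05 under βOHB in hepatocytes, 4.68% and 2.17% against 3.01% and 2.5% of all genes, with a median log2 fold change of 0.023. Of 1693 genes that butyrate lowered in the 3 other cell types, 31 were higher and 77 lower (1.83% and 4.55%), with a median of -0.020. In hepatocytes, butyrate itself gave medians of 0.964 and -0.763 for the same lists. Over the 1323 and 1564 members that averaged at least 1 CPM, the mean log2 CPM of the first list was 4.38, 4.44 and 4.43 in the controls and 4.46, 4.47 and 4.42 under βOHB, and that of the second 5.38, 5.36 and 5.38 against 5.35, 5.36 and 5.34, with overlapping groups in both. Without βOHB 2 the first list gave 110 higher and 73 lower with a median of 0.004, and the second 111 higher and 191 lower with a median of -0.040, where 825 (5.38%) of all 15340 genes were higher and 814 lower. Without both leaning libraries the medians were -0.006 and -0.038. Under butyrate the libraries lay at 5.22 to 5.23 and 4.51 to 4.52.

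The histone deacetylases and sirtuins gave 1 lower gene of 18 at P below 0.05 (5.56% against 2.5% of all genes), *Sirt2*, at 104, 114 and 100 CPM against 96.9, 104 and 91.1 CPM. The hepatocyte libraries alone gave 0 of 18 (*Sirt2* P 0.0857 in edgeR). *Hdac1*, *Hdac2* and *Hdac3* differed by -0.04, -0.08 and -0.01, and *Sirt1* by 0.15 (from -0.01 to 0.31). Immediate early genes gave none of 32. *Fos* was at 13.3, 14.7 and 13.1 against 12.2, 13.6 and 13.3 CPM, *Egr1* and *Dusp1* differed by 0.04 and -0.08, and *Myc* was at 128, 130 and 130 against 112, 118 and 118 CPM, below all controls, with an interval from -0.34 to 0.03. In the fit of the hepatocyte libraries 2 of the 32 were lower at P below 0.05 (6.25% against 1.92% of all genes), *Myc* at -0.16 (from -0.30 to -0.02) and *Fosl1* at -0.28 (from -0.46 to -0.09). Of the FOXO and antioxidant genes, to which βOHB has been linked, 1 of 34 was lower at P below 0.05 (2.94% against 2.5%), *Gadd45a*, at 50.9, 42.4 and 41.1 against 35.8, 36.7 and 40.9 CPM. In the fit of the hepatocyte libraries 3 were lower (*Gadd45a*, *Gclc* and *Hmox1*, 8.82% against 1.92%). Without βOHB 2 none of the 34 had P below 0.05, and the median was -0.086, against -0.014 with all libraries. *Foxo3*, *Cat*, *Sod2* and *Mt2* differed by -0.04, -0.01, 0.04 and 0.03. The integrated stress response gave 1 gene higher (*Psat1*) and 1 lower (*Slc7a5*) of 35, 2.86% each way against 3.01% and 2.5% of all genes (only *Slc7a5* in the hepatocyte libraries alone), and *Atf4*, *Trib3* and *Asns* differed by 0.02, 0.02 and -0.02. Among genes of cell death, p53 and proliferation, 1 of 32 was lower (*Pcna*, at 68.7, 62.8 and 66.2 against 62.4, 55.4 and 59.9 CPM), 3.12% against 2.5% (in the hepatocyte libraries alone *Pcna* had P 0.063 in edgeR, and 2 other genes of the 32 were lower, 6.25% against 1.92%), and *Mdm2*, *Ccnd1* and *Mki67* differed by -0.06, 0.09 and 0.10.

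Mitochondrial genes had narrow intervals. Of 26 genes of the tricarboxylic acid cycle, 1 was higher at P below 0.05 (*Idh2*, at 44.2, 51.2 and 48.6 against 55.7, 60.4 and 51.9 CPM, log2 fold change 0.22), which is 3.85% against 3.01% of all genes. Without βOHB 2 none of the 26 had P below 0.05 and the median was -0.02, against 0.011 with all libraries. In the fit of the hepatocyte libraries *Idh2* alone was called. *Cs*, *Idh3a*, *Sdha* and *Mdh2* differed by 0.01, 0.02, 0.01 and -0.06. Of 72 genes of the respiratory chain and ATP synthase, 3 were higher (*Ndufa1*, *Ndufb2* and *Ndufb6*), 4.17% against 3.01% of all genes, with a median of 0.036. Without βOHB 2 none was higher and 3 were lower, with a median of -0.034, where 5.38% of all genes were higher and 814 of 15340 lower. With the lean as a covariate 12 were higher and none lower, where 440 of all 15340 genes were higher, and in the fit of the hepatocyte libraries 1 was higher and 1 lower (1.39% each way against 2.34% and 1.92%). *Ndufs1*, *Cox4i1* and *Atp5b* differed by 0.09, 0.03 and 0.02. All 26 and all 72 had intervals inside 1.5-fold either way. The mean log2 CPM of the respiratory list was 6.41, 6.30 and 6.26 in the controls and 6.29, 6.49 and 6.30 under βOHB, highest in control 1 and in βOHB 2 of their groups. *Nnt*, the mitochondrial transhydrogenase, has 2 entries in the table, and the reads moved between them from library to library: the second entry held 43.4, 6.57 and 33.1 CPM in the controls and 0, 37.3 and 0 CPM under βOHB. The sum of both entries was 72.1, 84.1 and 81.5 against 87.7, 91.5 and 75.7 CPM, with overlapping groups.

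Among 24 genes of the circadian clock, 2 were higher at P below 0.05 (8.33% against 3.01% of all genes), *Clock* and its partner *Arntl*. *Clock* (GRCm38 chromosome 5 from 76209868 to 76304792, minus strand) was at 59.8, 67.5 and 67.5 CPM in the controls and 85.2, 66.2 and 91.6 CPM under βOHB. The βOHB libraries 1 and 3 were above the controls and βOHB 2 was among them (log2 fold change 0.32, SE 0.08, P 0.000508 in edgeR). *Arntl* was at 25.6, 27.4 and 27.1 against 30.7, 29.6 and 29.3 CPM (0.16, SE 0.07). The genes that the pair drives, *Per1*, *Per2*, *Nr1d1* and *Dbp*, differed by -0.03, -0.11, 0.01 and -0.28, none with P below 0.05. Without βOHB 2, *Clock* was at 0.45 with an edgeR adjusted p of 0.0124. With the lean as a covariate it was at 0.24 (P 0.00123, adjusted p 0.673), and in the fit of the hepatocyte libraries its P was 0.00903.

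The bounds on the response follow from these errors. Of the 15340 tested genes, 11791 averaged at least 1 CPM over the 6 libraries, and for 11481 of them (97.4%) the 95% interval of the βOHB response lay inside 2-fold either way, which is 74.8% of all tested genes. For 10311 (87.4%) it lay inside 1.5-fold. The median half-width was 0.187 log2 units, from 0.386 at 1 to 10 CPM to 0.168 at 10 to 100 CPM and 0.143 at 100 CPM and above. The share inside 1.5-fold was 57.6%, 98.2% and 96.4% in these classes. In 4 genes of those averaging at least 1 CPM the interval lay wholly beyond 1.5-fold. They were *Cyp2c29*, *Gm2000* and, named here because of their values, the short genes *1810049J17Rik* and *Pdcd5-ps*. *1810049J17Rik* was at 0.354 to 1.50 against 2.51 to 3.10 CPM. *Pdcd5-ps* had 0 to 4.91 CPM in the controls and 0 in all βOHB libraries, where the fitted size has no meaning. By list, the plasma proteins were bounded least, with 67.4% inside 2-fold in the fit of all libraries and 100% when the 9 hepatocyte libraries were fitted alone. Under butyrate, 68.6% of the 11791 genes had an interval inside 2-fold and 12.6% had one wholly beyond it. The intervals treat each gene separately, and the floor of 1 CPM was set after the data were seen.

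**Figure D4:**
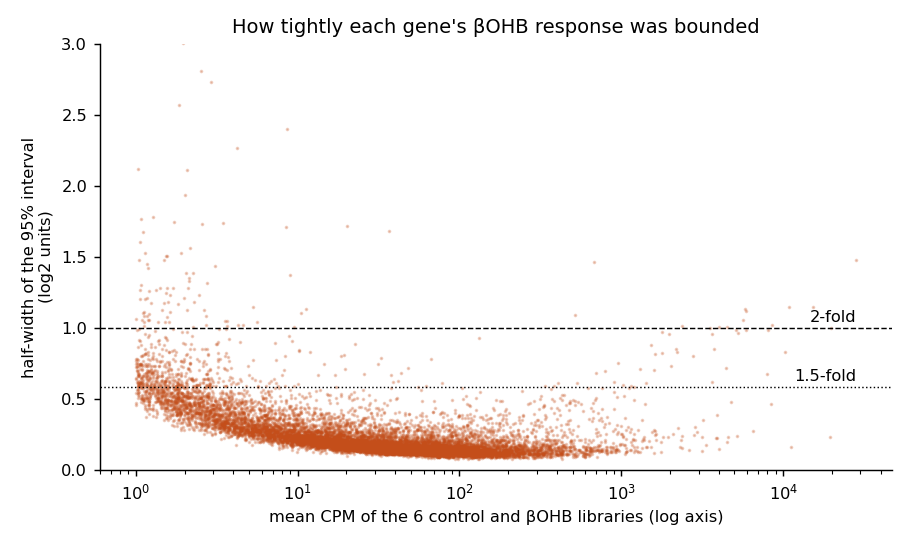
Half-width of the 95% interval of the βOHB response (y axis, log2 units) against the mean CPM of the 6 libraries (x axis, log scale), for the 11791 genes averaging at least 1 CPM, 2 of which lie above the axis limit and are not shown. The dashed and dotted lines stand at 2-fold and 1.5-fold. Most genes above 10 CPM lie under the dotted line. The exceptions include the most abundant plasma protein mRNAs at the right and other genes, such as *Krt8* and *Rsad2*.

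The 6 libraries differed in the balance of short and long transcripts, and the split ran through both groups. Protein-coding genes with a mean log2 CPM above 3 were divided into 5 classes by exonic length. The median log2 difference from the control mean in the longest class minus that in the shortest was -0.152, 0.068 and 0.088 in controls 1 to 3 and 0.138, -0.098 and 0.124 in βOHB 1 to 3. Control 1 and βOHB 2 thus leaned to short transcripts, while βOHB 1 and 3 lay above all controls. The 3 butyrate libraries of hepatocytes lay higher still, at 0.23, 0.26 and 0.26. Contrasts with them therefore carry a length difference too, and its part in those contrasts was not tested. Leaving out βOHB 2 raised the number of genes at P below 0.001 from 25 to 145, and those at an adjusted p below 0.05 from 1 to 29, of which 24 were higher. The 24 had a median exonic length of 8286 bases, against 4409 for the genes of at least 1 CPM. They included *Clock*, *Arhgap5* (83.6, 103 and 98.1 against 122, 99.9 and 139 CPM), *Zfp148* (47.9, 53.5 and 49.9 against 63.7, 48.3 and 62.8 CPM), *Cep290* (6.83, 6.94 and 7.56 against 10.3, 7.36 and 11.2 CPM) and *Atrx* (68.1, 79.1 and 83.5 against 96.2, 78.6 and 109 CPM), which are named here after their values were seen. In each of them βOHB 1 and 3 were above all controls and βOHB 2 was not. Leaving out control 1 as well gave 24 genes at an adjusted p below 0.05, 13 of them among the 29. With the lean of each library as a covariate, 22 genes had P below 0.001 and none an adjusted p below 0.05 (784 at an unadjusted P below 0.05, edgeR). The part of the lean in these calls was not tested beyond that fit.

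Genes whose symbols begin with Zfp, a group picked after several of them were seen among the leading genes, were also examined by library. They encode zinc-finger proteins, many of them repressors of transposable elements, and 352 were tested. Of these, 42 were higher and 2 lower at P below 0.05 (11.9% and 0.568%, against 3.01% and 2.5% of all genes), with a median log2 fold change of 0.073. The median difference from the control mean was -0.002, 0.016 and -0.023 in the controls, 0.078, -0.005 and 0.151 in βOHB 1 to 3 and 0.074 to 0.134 under butyrate, so that βOHB 2 lay among the controls. Control 1, the other leaning library, lay between the other 2 controls. Without βOHB 2, 76 were higher and 6 lower, where 825 (5.38%) of all 15340 genes were higher and 814 lower. With the lean as a covariate 32 were higher and 2 lower, where 440 of all 15340 genes were higher and 344 lower. Their median exonic length, 4715 bases, was close to that of all genes of at least 1 CPM. In the other cell types βOHB gave 22 higher and 8 lower in adipocytes (of all genes, 3.48% were higher and 563 lower), 6 and 2 in macrophages (1.15% and 181) and 37 and 3 in myotubes (6.71% and 1076). Many zinc-finger genes are close copies of each other, between which reads can be split.

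**Figure D5:**
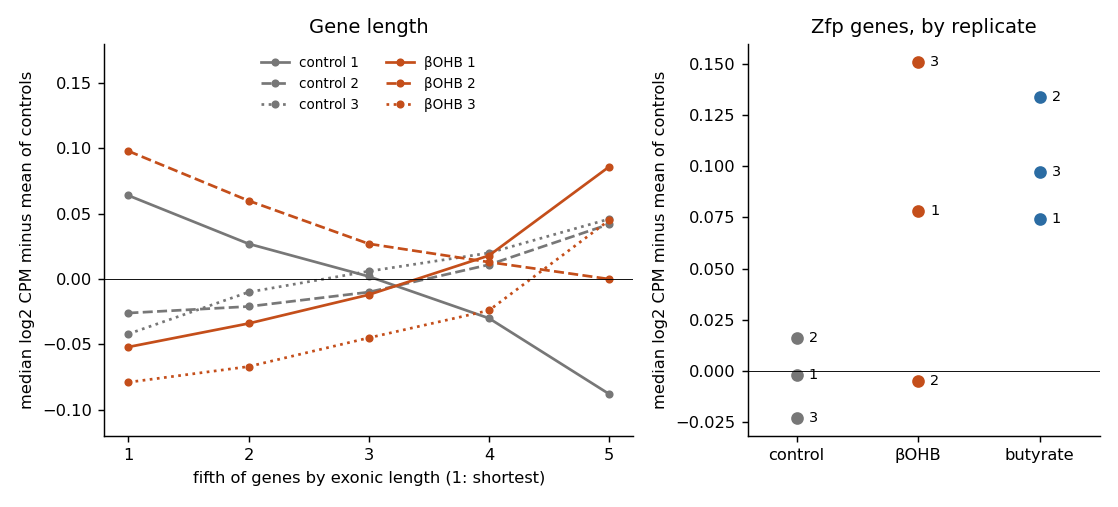
Left, median log2 CPM minus the control mean (y axis) of genes in 5 classes of exonic length (x axis, 1 is the shortest) for each control and βOHB library; right, the same quantity for the Zfp genes, numbered by replicate. Control 1 and βOHB 2 fall from short to long while the other 4 lines climb, and βOHB 2 is the one treated library whose Zfp genes lie with the controls.

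Whether the response was particular to hepatocytes was asked by setting it against the mean βOHB response of adipocytes, macrophages and myotubes in the same model. No gene passed an adjusted p of 0.05 in edgeR, limma-voom or DESeq2, and 907 had an unadjusted P below 0.05 in edgeR (5.91%). The 3 genes of smallest P were *Rnf34* (difference -0.33, P 2.68e-05), *Srrt* (-0.31, P 0.000168) and *Clk2* (-0.33, P 0.000246), the last 2 factors of RNA processing. *Srrt* was at 86.6, 78.1 and 92.2 CPM in the hepatocyte controls and 80.2, 83.6 and 77.1 CPM under βOHB, and *Clk2* at 25.3, 26.3 and 23.5 against 21.2, 22.0 and 21.1 CPM. *Cyp2c29* could not be compared, since it had 0 counts in all 18 control and βOHB libraries of the other cell types.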

How the data were processed

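Per the methods of the study, the authors mapped reads with Salmon 1.2.1 to GENCODE transcripts (GRCm38.p6) and summed them per gene with tximport, and the deposited values are estimated counts. The methods also state a scaling by transcript length and library size. Whether the deposited values carry that scaling was not determined, and it could bear on length-related differences. Of the values above 0, 55.6% were whole numbers. Of 54347 genes, 54094 were named from a GENCODE annotation of the same build. Groups and replicate numbers came from the labels.

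Estimated counts were rounded and fitted in R 4.3.3 with edgeR 4.0.16, using TMM factors, the quasi-likelihood test and Benjamini-Hochberg adjustment. All 36 libraries entered 1 model with a mean for each group. The study, which used limma, filtered genes over the same 36 samples. The filter (CPM over 1 in 6 libraries or more) left 15340 genes, of which 11791 averaged at least 1 CPM in the hepatocyte control and βOHB libraries. Shares of all tested genes include the genes below that floor. CPM values carry the TMM factors, and intervals are at 95%. The threshold of P below 0.001 is the study's. No replicate library repeated another (reduced chi-square 6.273 to 18.25). Scripts were tested on simulated data. The floor of 1 CPM for counting intervals was added after the data were seen.

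The gene lists and their members were chosen with earlier results of these data known. Of the listed symbols, 7 were matched by an older name and 1 had no match. Named genes were every gene at an adjusted p below 0.05, the 8 higher and 8 lower of smallest P below 0.001 whose groups did not overlap, the lead members and the member of smallest P of each of 24 lists, all tested *Cyp2c* genes and the 3 genes of smallest P in the contrast between cell types. Some lead members are not reported here. Promoters are from RefSeq (GRCm38.p6). Alternatives were limma-voom (limma 3.58.1), DESeq2 1.42.0, other scalings and filters, fewer libraries, a replicate block, each library left out and, chosen after seeing the data, both leaning libraries left out and the lean as a covariate.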

Additional observations from a re-analysis of the deposited data

How the results depend on the processing

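The number of genes at P below 0.001 between βOHB and control (25) was 38 with DESeq2, 126 with no filter on low counts, 11 with only the 9 hepatocyte libraries, 6 with only the 6 control and βOHB libraries, and 103 with both leaning libraries left out. The number at an adjusted p below 0.05 (1) was 2 with DESeq2, 48 with no filter, 24 with both leaning libraries left out and 0 with the lean as a covariate, where 784 genes had an unadjusted P below 0.05 in edgeR. Leaving out 1 library gave 14 to 145 genes at P below 0.001: 145 without βOHB 2, 50 without control 2, 16 without control 1 and 14 without βOHB 1. It gave 0 to 29 at an adjusted p below 0.05: 29 without βOHB 2, 1 without βOHB 3, 1 without control 1 (a lower gene, not *Cyp2c29*) and 0 without any other one. The contrast between cell types gave 104 genes with no filter and 0 under the other settings in which it was fitted. The share of tested genes with an interval inside 2-fold stayed between 72.9% and 76.0%, and the number that differed between βOHB and butyrate moved by less than 1.5 times under each setting in which it was fitted. The cause was not tested.

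The replicate numbers did not pair the libraries: deviations from the group means correlated at -0.06 to 0.01 between control and βOHB libraries of the same number, and 0 of 3 control libraries matched their own number best. With the replicate number as a block, 16 genes had P below 0.001.

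Of 357 recomputed values of 17 called and named genes, 240 kept P below 0.001, 117 did not and 0 changed sign. Of 504 list medians, 480 moved by less than 1 SD of the controls.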
